A study of Arabidopsis thaliana with 11 samples.

Results

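The 9 genes described here encode the glyoxylate cycle of Arabidopsis thaliana and its entry and exit steps: isocitrate lyase (ICL, AT3G21720), malate synthase (MLS, AT5G03860), the citrate synthases CSY2 (AT3G58750) and CSY3 (AT2G42790), the malate dehydrogenases PMDH1 (AT2G22780) and PMDH2 (AT5G09660), aconitase 3 (ACO3, AT2G05710), phosphoenolpyruvate carboxykinase 1 (PCK1, AT4G37870) and the triacylglycerol lipase SDP1 (AT5G04040). They were chosen by locus, and all were measured, as 11 of the 37118 features and 9 of the 32627 loci of the array. For 8 of them 1 feature was present, and PMDH2 had 3, numbered 1, 2 and 4. The features rest on 4 probes (ICL, CSY2, CSY3, PMDH1, ACO3) or 3 probes (the others). The probes' sequences were not used here, and signal shared between related genes was not checked.

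RNA came from dark-grown hypocotyls, the embryonic stems of seedlings, of accession Columbia. Wild type (n = 6 arrays) was set against the line labelled atpme3-1, described as a loss-of-function mutant of the pectin methylesterase gene PME3 (n = 5 arrays, numbered 1, 2, 3, 5 and 6). Numbers follow the sample names; the descriptions call the array numbered 5 the fourth, and that numbered 6 the sixth, of 5 mutant replicates. In both groups seeds spent 3 days cold in the dark and 6 h in white light, followed by 4 days of darkness, and the hypocotyls were taken at an age of 96 h. A replicate pooled about 300 hypocotyls and was collected on its own. The mutant is represented by this allele alone, and in RNA from whole organs fewer cells of a type and less RNA per cell cannot be told apart.

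Oil is the main carbon reserve of an Arabidopsis seed. After germination SDP1 starts the release of fatty acids from oil bodies, β-oxidation in the peroxisome turns them into acetyl-CoA, and the glyoxylate cycle joins acetyl units into four-carbon acids without losing carbon. ICL and MLS are the enzymes that only this cycle has, while citrate synthase, aconitase and malate dehydrogenase also work outside it. PCK1 then turns oxaloacetate into phosphoenolpyruvate, the entry to gluconeogenesis, which feeds the seedling with sucrose until it can photosynthesise.

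None of the 9 genes passed the test of a difference between the groups. Of the 11 features 0 were called higher and 0 lower at a limma adjusted p of 0.05, against 32.4% of all features of the array called in either direction, 18.8% higher and 13.6% lower. With a fold of at least 1.5 asked for in addition, 8.41% of all features were called and again 0 of the 11. At an unadjusted p of 0.05, 2 of the 11 passed, CSY3 and SDP1, both towards lower values on the arrays labelled mutant. The groups overlapped for all 11 features, so that 0 lay wholly lower on the arrays labelled mutant, against 9.35% of all features. The log2 fold changes (labelled mutant minus wild type, here and throughout) ran from -0.23 to 0.04, with 6 of 11 below 0 and a median of -0.07. The median of all features was 0.04.

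A missed threshold does not show that levels were equal, but the intervals were narrow. The 95% intervals of the 11 features, each taken alone, lay between 0.743-fold and 1.18-fold, so that none reached a fall or a rise of 1.5-fold. The median size of the change, on the log2 scale and without its sign, was 0.07 for the 11 features, 0.14 for all features and 0.09 for the brightest 25%, which hold 10 of the 11. Among those bright features 24.3% were called. In 25 alternative analyses the number of the 11 called higher was 0 every time, and the number called lower was 0 in 16 and 1 in 9. The 16 include the stricter cuts, an adjusted p of 0.01 and an added fold of 1.5. Those cuts reuse the p-values of the main fit and could only give 0, so they add no evidence. Not every alternative tested all 11 features: CSY3 was too dim to enter 1 of them, and another merged the PMDH2 features.

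**Figure D1:**
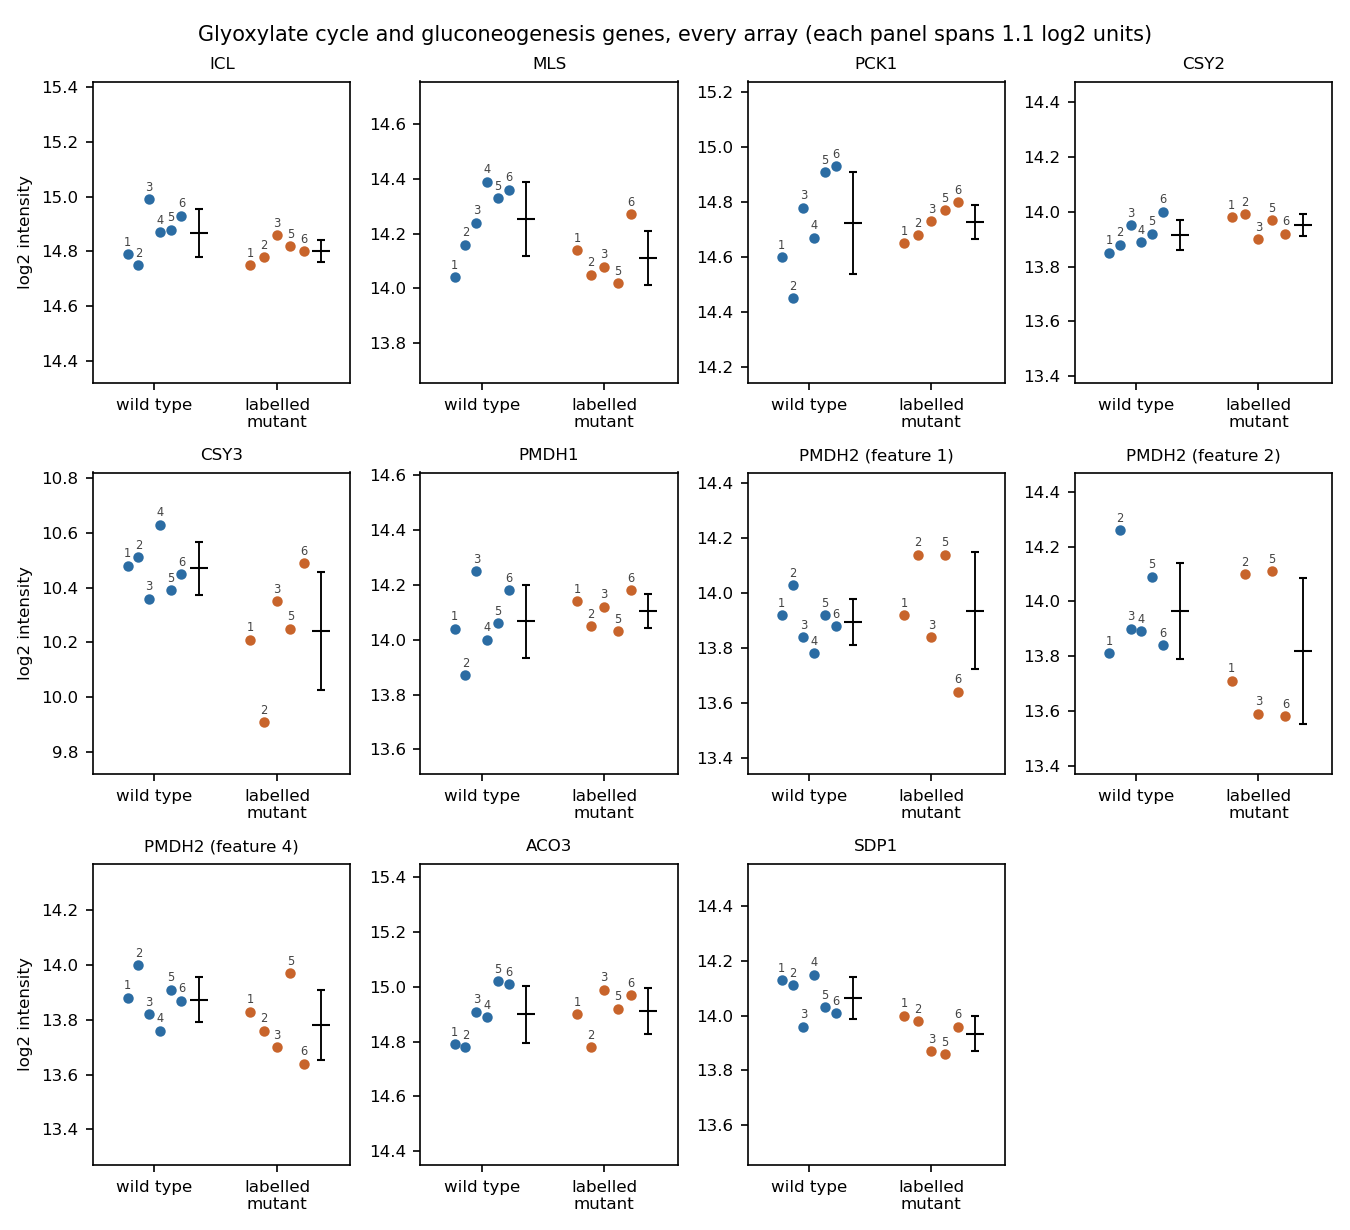
Log2 intensity (y axis) of the 11 features on every array, wild type in blue (n = 6) and labelled mutant in orange (n = 5), with replicate numbers above the points and the mean ± SD in black. The groups overlap in all 11 panels, and the widest scatter is that of CSY3 and PMDH2 features 1 and 2 on the arrays labelled mutant.

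A few facts of the whole series bear on these values. Signal ran from 95.7 to 53727, and the array medians lay between 3775.6 and 3909.2. ICL, PCK1 and ACO3 sit among the brightest 1% of features, where scanners can lose linearity; their highest value was 33294, and the files used here hold no saturation flags. Of the 372 features in that range 65 (17.5%) were called, with log2 fold changes from -1.09 to 0.41, and a part of brightness in the small changes of the 3 genes was not tested. The PME3 feature read higher where the label says mutant (13.81 ± 0.06 to 14.41 ± 0.02, log2 mean ± SD; limma adjusted p 4.91e-07), which goes against a loss of the transcript as far as its 4 probes report it; where they lie relative to the mutation was not known here. Every direction below therefore rests on the label.

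SDP1 had the smallest adjusted p of the 11 features. Wild-type intensities ran from 15921 to 18196 with a median of 17214.5. The arrays labelled mutant read 16369, 16123, 14991, 14868 and 15945 for replicates 1, 2, 3, 5 and 6. Wild-type replicate 3 lay inside the range of the mutant-labelled arrays and the other 5 wild-type arrays lay above it. The log2 fold change was -0.13 ± 0.049 (SE; 95% interval -0.24 to -0.02) with a limma adjusted p of 0.0588. Without wild-type replicate 3 it was -0.15 with an adjusted p of 0.0357, and over the 25 alternatives the adjusted p ran from 0.0351 to 0.272. SDP1 was the gene called in 5 of the 9 alternatives that gave a call.

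The enzymes found only in the glyoxylate cycle were bright on all arrays. ICL, which splits isocitrate into succinate and glyoxylate, ran from 27476 to 32540 in wild type with a median of 30060. On the arrays labelled mutant it read 27572, 28130, 29674, 28980 and 28617, all within the wild-type range. Its log2 fold change was -0.07 ± 0.049 (limma adjusted p 0.323), and the interval allowed at most a fall to 0.888-fold and a rise to 1.03-fold.

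MLS, which joins glyoxylate and acetyl-CoA to malate, ran from 16793 to 21425 in wild type with a median of 19960. The arrays labelled mutant read 18026, 17016, 17330, 16612 and 19730. Wild-type replicate 1 was as low as the mutant-labelled arrays, the other 5 wild-type arrays were above 4 of those 5 arrays, and replicate 6 of the mutant-labelled group was in the middle of the wild-type range. The log2 fold change was -0.14 ± 0.071 with a limma adjusted p of 0.151. Without wild-type replicate 1 it became -0.18 with an adjusted p of 0.0488, against 0.0488 to 0.541 over all alternatives.

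Citrate synthase makes the cycle's citrate from oxaloacetate and acetyl-CoA, and CSY2 and CSY3 behaved unlike in their spread. CSY2 ran from 14730 to 16392 in wild type (median 15374) and read 16205, 16312, 15328, 16011 and 15520 on the arrays labelled mutant, every one within that range. Its log2 fold change was 0.04 ± 0.040 (limma adjusted p 0.481). CSY3 was dimmer and below the array medians. It ran from 1311 to 1582 in wild type (median 1412) and read 1186, 960, 1308, 1216 and 1434 on the arrays labelled mutant. Of these, 4 lay below every wild-type array, replicate 3 only just, and replicate 6 lay above 4 of the 6 wild-type arrays.

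The CSY3 log2 fold change was the largest of the 11, at -0.23 ± 0.091 (95% interval -0.43 to -0.03), with a limma adjusted p of 0.0752. It became -0.29 with an adjusted p of 0.0263 without replicate 6 of the mutant-labelled group, and -0.14 with 0.145 without replicate 2. The adjusted p ran from 0.0263 to 0.357 over the alternatives. On the array as a whole 31.7% of features had a larger change in either direction. ACO3, the aconitase that turns citrate into isocitrate, ran from 28040 to 33294 in wild type (median 30605). It read 30513, 28225, 32610, 31050 and 32057 on the arrays labelled mutant, again within the wild-type range, with a log2 fold change of 0.01 ± 0.060 (limma adjusted p 0.887).

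**Figure D2:**
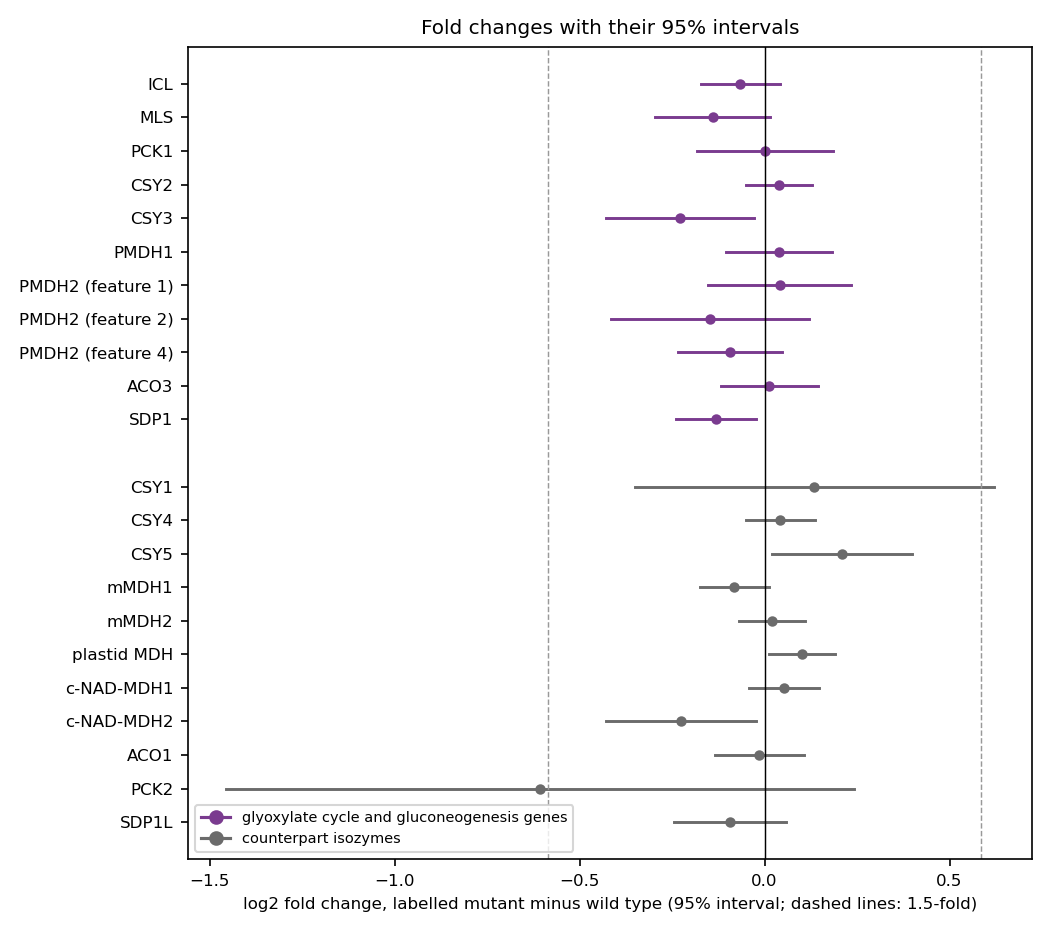
Log2 fold change (x axis, labelled mutant minus wild type) with its 95% interval for the 11 features in purple and for 11 counterpart isozymes in grey, with dashed lines at 1.5-fold in each direction. All purple intervals stay inside the dashed lines, those of CSY3 and SDP1 leave out 0, and PCK2 and CSY1 have the widest intervals.

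PMDH1 and PMDH2 are the peroxisomal malate dehydrogenases, which are also known to reoxidise the NADH of β-oxidation. PMDH1 ran from 14985 to 19515 in wild type (median 16964) and read 18076, 16977, 17814, 16734 and 18585 on the arrays labelled mutant, all within that range, with a log2 fold change of 0.04 ± 0.065 (limma adjusted p 0.679). PMDH2 was less even. Its feature 1 read 15477, 18113, 14664, 17992 and 12768 on the arrays labelled mutant, against 14079 to 16707 in wild type (median 15274). Replicates 2 and 5 were thus above every wild-type array and replicate 6 below every one.

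PMDH2 feature 2 was again high on replicates 2 and 5, with 13387, 17580, 12319, 17680 and 12204, against 14405 to 19558 in wild type (median 15185). Replicates 1, 3 and 6 lay below all wild-type arrays there. Feature 4 read 14544, 13837, 13303, 16074 and 12797, against 13844 to 16434 (median 15040), and there replicate 5 was within the wild-type range and replicate 2 just below it. The log2 fold changes were 0.04 ± 0.088, -0.15 ± 0.12 and -0.09 ± 0.064 for features 1, 2 and 4, with limma adjusted p values of 0.751, 0.378 and 0.279. Without replicates 2 and 5 of both groups, an alternative added after seeing the data, feature 2 was at -0.23 (adjusted p 0.0270) and feature 1 at -0.06.

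The 3 PMDH2 features were compared with each other within each array. Feature 1 exceeded feature 4 by 0.02 ± 0.01 (log2, mean ± SD) in wild type and by 0.16 ± 0.15 on the arrays labelled mutant, where replicate 2 had 0.39 and replicate 6 had -0.0033. An exact two-sided permutation test of that difference gave p = 0.0152, or 0.0455 adjusted over the 3 pairs. The test takes the arrays as exchangeable, and with spreads this unequal its p does not measure a shift of the mean alone. Feature 1 against feature 2 gave -0.07 ± 0.13 and 0.12 ± 0.10 (exact permutation p = 0.0325, adjusted 0.0487), and feature 2 against feature 4 gave an adjusted exact p of 0.595. Each of the first 2 differences missed the threshold in 10 of 11 repeats without 1 array. Without replicate 2 of the mutant-labelled group the difference between features 1 and 4 was 0.08 in place of 0.14. Which transcripts the features report was not known here.

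PCK1, the exit to gluconeogenesis, had group means that were almost equal. It ran from 22317 to 31183 in wild type (median 27157), where replicates 1 and 2 were lowest and replicates 5 and 6 highest. The arrays labelled mutant read 25660, 26237, 27153, 28015 and 28471, a narrower range inside that of wild type. The log2 means were 14.72 ± 0.19 and 14.73 ± 0.06 (SD), and the log2 fold change was 0.00094 ± 0.084, with an interval from 0.881-fold to 1.14-fold (limma adjusted p 0.994).

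Pairs of the genes differed in how far they moved together within the groups. As a description, each array was taken as its deviation from its group mean, and Pearson's r was computed over the 11 arrays. Between different genes it was highest for PCK1 and ACO3 (0.855), ICL and PMDH1 (0.77) and ICL and PCK1 (0.76). SDP1 ran opposite to ICL (r = -0.80). With replicates 2 and 5 of both groups left out (7 arrays) these values were 0.848, 0.71, 0.70 and -0.91. The PMDH2 features 1, 2 and 4 had r of -0.31, -0.33 and -0.38 with ICL, which became -0.11, 0.15 and -0.34 on the 7 arrays. With ICL, CSY3 had -0.05 and -0.25, and MLS, the other enzyme found only in this cycle, had 0.40 and 0.30. Over the 11 arrays MLS had 0.66 with ACO3, 0.56 with PCK1, -0.04 with SDP1 and -0.64 with PMDH2 feature 1. The arrays share a common normalization, so these values carry no p. They were not set beside pairs of other genes of the array, so they are not shown to be a trait of this set. Genes outside the set reached higher r with ICL, MLS and PCK1, as given below.

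**Figure D3:**
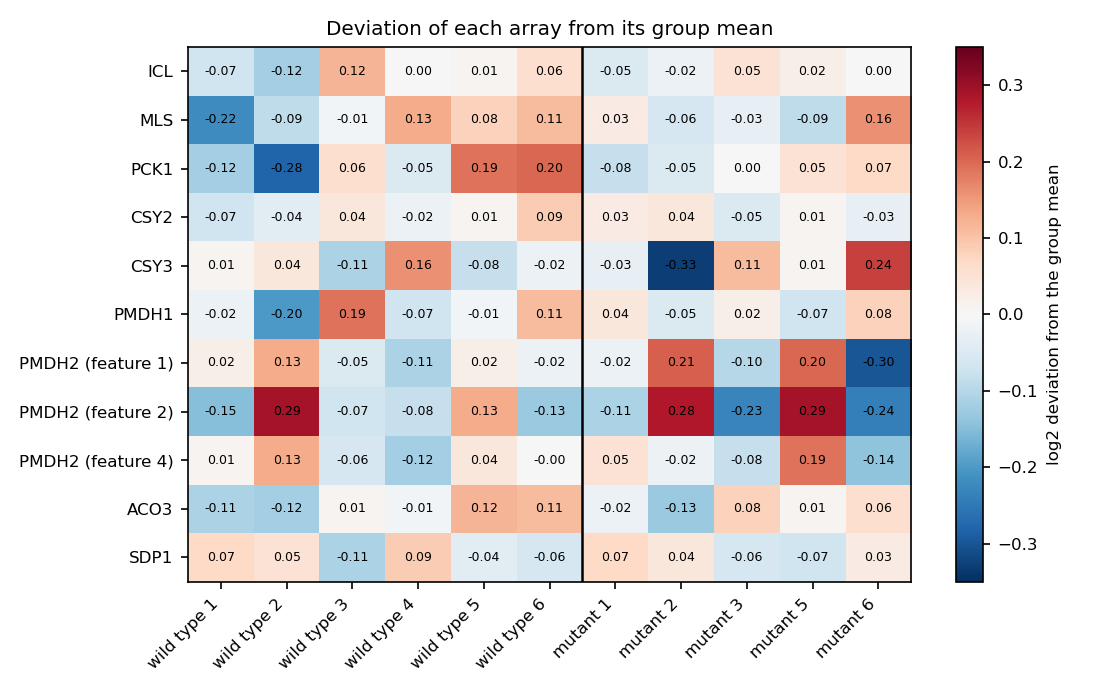
Deviation of each array (columns) from the mean of its group for the 11 features (rows), on the log2 scale, with red above and blue below the group mean and a line between wild type and labelled mutant. PCK1, ACO3 and ICL are low on wild-type replicates 1 and 2, while PMDH2 feature 2 is high on replicates 2 and 5 of both groups.

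Genes outside the set whose deviations ran most like those of ICL, MLS and PCK1 were sought among 24219 genes (Pearson's r over 11 arrays, dimmest 25% of features left out). For ICL these were AT4G08430 (0.956), AT2G36580 (0.951) and AT1G01230 (0.939). For MLS they were AT5G15200 (0.971), AT5G33400 (0.961) and AT2G16905 (0.955), and for PCK1 AT4G03825 (0.97), AT2G08986 (0.97) and AT4G07941 (0.961). An r above 0.9 was reached by 7 genes for ICL, 51 for MLS and 102 for PCK1, so the nearest gene is 1 of many. The gene table used here gives no symbol for any of the 9 genes named.

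The counterpart isozymes of the other compartments, and second copies, did not pass either. Of these 11 genes 0 were called higher and 0 lower, against 19.4% and 13.1% of all genes of the array. The mitochondrial citrate synthases CSY4 (0.04 ± 0.043) and CSY5 (0.21 ± 0.086), the mitochondrial malate dehydrogenases mMDH1 (-0.08 ± 0.043) and mMDH2 (0.02 ± 0.041) and the aconitase ACO1 (-0.01 ± 0.055) all had limma adjusted p values of 0.0840 or more (log2 fold change ± SE). The plastid malate dehydrogenase (AT3G47520) was at 0.10 ± 0.041 (limma adjusted p 0.0783) and passed with median centring (0.0423), an intensity trend (0.0446) or array weights (0.0490). Also short of the threshold were the cytosolic forms c-NAD-MDH1 and c-NAD-MDH2 at 0.05 ± 0.043 and -0.23 ± 0.093. The last became -0.28 (limma adjusted p 0.0289) without wild-type replicate 1, -0.27 (0.0425) without wild-type replicate 2 and -0.24 (0.04355) with array weights. The second lipase SDP1-LIKE was at -0.09 ± 0.070.

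CSY1 and PCK2 had the widest intervals, and their wild-type arrays differed among themselves. PCK2, the second phosphoenolpyruvate carboxykinase, read 2663, 5782, 1539, 2816, 5852 and 1474 on wild-type replicates 1 to 6. Replicates 2 and 5 were high, 3 and 6 low, and 1 and 4 between them. The arrays labelled mutant read 2227, 1740, 1157, 1986 and 2738, and replicates 2 and 5 were not high there. The log2 fold change was -0.61 ± 0.39 (limma adjusted p 0.249), with an interval from -1.46 to 0.24. CSY1 ran from 656 to 1432 in wild type and was at 0.13 ± 0.22.

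Further gene lists were read against the whole array, where 19.4% of genes were called higher and 13.1% lower, 32.5% in all. Among 10 other genes that handle the cycle's acids and acetate, 1 rose and 1 fell, a share of 20.0% called, which is no higher than that of the array. SDH2-3, the iron-sulphur subunit of succinate dehydrogenase known from embryos and seeds, ran from 696 to 1333 in wild type (median 1087) and read 3819, 3893, 5046, 5619 and 5546 on the arrays labelled mutant. All 5 lay above all 6 wild-type arrays. Its log2 fold change was 2.21 ± 0.18 (limma adjusted p 3.67e-06), or 4.61-fold, while SDH2-1 (0.09 ± 0.044, among the dimmest 25% of features) and SDH2-2 (-0.02 ± 0.052), known from vegetative tissue, did not pass.

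FUM1, the mitochondrial fumarase, was the gene that fell (-0.21 ± 0.047, limma adjusted p 0.00591). The call was lost without replicates 2 and 5 of both groups (adjusted p 0.0600, an alternative chosen after seeing the data) and with arrays whose numbers lie 3 apart averaged (0.0520). AAE7 (also ACN1), which activates acetate, was at 0.07 ± 0.071, and the mitochondrial succinate-fumarate carrier mSFC1, which can export fumarate against succinate from the cycle, at -0.08 ± 0.074.

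In cytosolic gluconeogenesis and sucrose synthesis 2 of 19 genes rose and 2 fell (21.1% called, against 32.5% of all genes), with a median log2 fold change of -0.04. Of the shared reversible steps, the mutase iPGAM1 passed, as given below. The enolase LOS2 (0.09 ± 0.041), the phosphoglycerate kinase PGK (-0.04 ± 0.040) and the triose phosphate isomerase TPI (-0.04 ± 0.060) did not pass. Neither did GAPC1 (-0.13 ± 0.062), GAPC2 (0.03 ± 0.048) or the cytosolic fructose bisphosphatase FBP (-0.01 ± 0.065). PPDK, pyruvate orthophosphate dikinase, which offers a second way from pyruvate into gluconeogenesis, fell. It ran from 13544 to 14423 in wild type (median 14203) and read 10752, 10197, 10225, 9307 and 10918 on the arrays labelled mutant, without overlap. Its log2 fold change was -0.46 ± 0.046 (limma adjusted p 1.98e-05).

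SPP1, a phosphatase of the last step of sucrose synthesis, changed most in this list. It ran from 5444 to 7854 in wild type (median 6065) and read 2816, 1775, 2933, 2197 and 4720 on the arrays labelled mutant, where replicate 6 was nearest to wild type and still below it. Its log2 fold change was -1.22 ± 0.21 (limma adjusted p 0.00110), against -0.07 ± 0.051 for SPP2 (AT2G35840), which did not pass. SPS3F, a sucrose phosphate synthase, rose by 0.28 ± 0.056 (adjusted p 0.00263), a call lost without replicates 2 and 5 of both groups (0.0522). The mutase iPGAM1 rose by 0.15 ± 0.045 (adjusted p 0.0224), a call lost without replicate 1 (0.0540) or 3 (0.0536) of the mutant-labelled group, with the replicate number as a block (0.102) and with arrays 3 numbers apart averaged (0.0725).

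**Figure D4:**
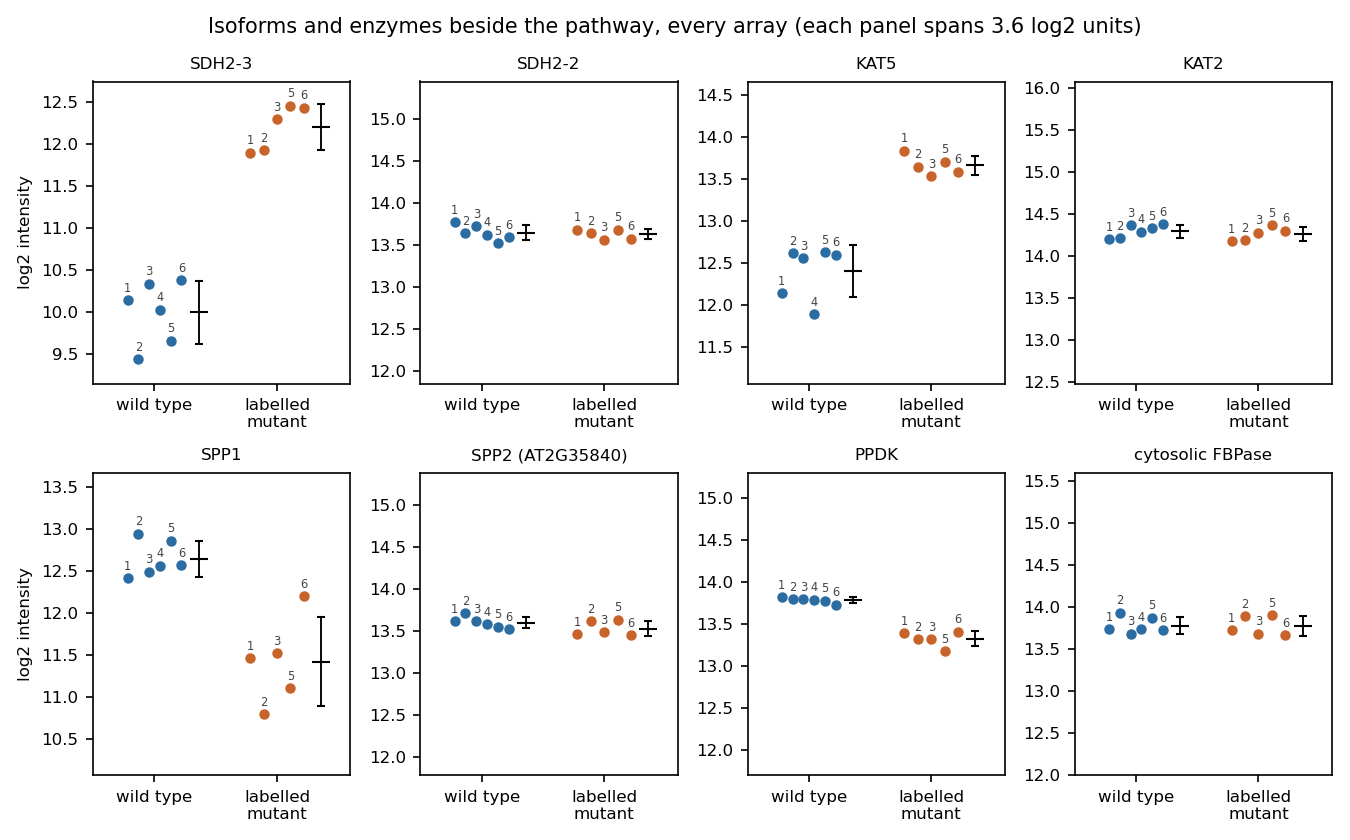
Log2 intensity (y axis) of 8 enzymes beside the core set on every array, wild type in blue and labelled mutant in orange, with replicate numbers and mean ± SD. SDH2-3, KAT5, SPP1 and PPDK separate the groups, while SDH2-2, KAT2, SPP2 and the cytosolic fructose bisphosphatase (FBPase) overlap.

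Upstream, in fatty acid activation, import and β-oxidation, 1 of 15 genes rose and 3 fell (26.7% called, against 32.5% of all genes), with a median log2 fold change of -0.05. KAT5, a thiolase of the last step of β-oxidation, ran from 3793 to 6333 in wild type (median 6127) and read 14671, 12899, 11882, 13385 and 12366 on the arrays labelled mutant. All 5 lay above wild type, with a log2 fold change of 1.26 ± 0.14 (limma adjusted p 3.42e-05), or 2.39-fold. The thiolase KAT2 (listed as PKT3), the main thiolase of seedlings, was at -0.03 ± 0.052 and KAT1 (PKT4) at 0.08 ± 0.053. PNC2, a peroxisomal carrier that brings in ATP, fell by 0.29 on the log2 scale (limma adjusted p 0.000745).

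MFP2, the multifunctional protein of β-oxidation, also fell (-0.22 ± 0.048, limma adjusted p 0.00562), a call lost without replicates 2 and 5 of both groups (0.0555), and so did the multifunctional protein AIM1 (-0.17 ± 0.051, adjusted p 0.0255). The AIM1 call was lost with the replicate number as a block (limma adjusted p 0.0650), with arrays 3 numbers apart averaged (0.107) and without replicates 2 and 5 of both groups (0.0687). Of the genes that use the glycerol released with the fatty acids, SDP6 fell (-0.16 ± 0.048, adjusted p 0.0232), a call lost without replicate 1 (0.0562), 2 (0.0576) or 3 (0.0502) of the mutant-labelled group. It was also lost with the replicate number as a block (0.0721), with arrays 3 numbers apart averaged (0.0536) and without replicates 2 and 5 of both groups (0.0513). The glycerol kinase gene NHO1 (also GLI1) did not pass (-0.12 ± 0.054).

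Genes that respond to sugar starvation and long darkness did not move one way. Of 10 measured, BGAL4 rose (0.32 ± 0.065, limma adjusted p 0.00366), and MIOX2 (-0.48 ± 0.078) and SEN1 (-0.33 ± 0.054) fell, with a median of -0.01. That share of 30.0% is near the 32.5% of all genes. The asparagine synthetase gene ASN1, a common marker of low sugar, was at 0.03 ± 0.34. Its log2 intensity was 12.72 and 12.61 on wild-type replicates 3 and 6 and between 14.10 and 14.36 on the other wild-type arrays, with the mutant-labelled arrays between them. The list mean, which includes ASN1, was lowest on wild-type replicates 3 and 6, at -0.20 and -0.22. BCAT-2, another gene of the list, was low there too (12.12 and 12.03), while SEN1 was not (14.48 and 14.53). The log2 fold change of DIN10 was 0.02 ± 0.046. The remaining gene of that list, bZIP1, had no feature under its locus on the array.

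**Figure D5:**
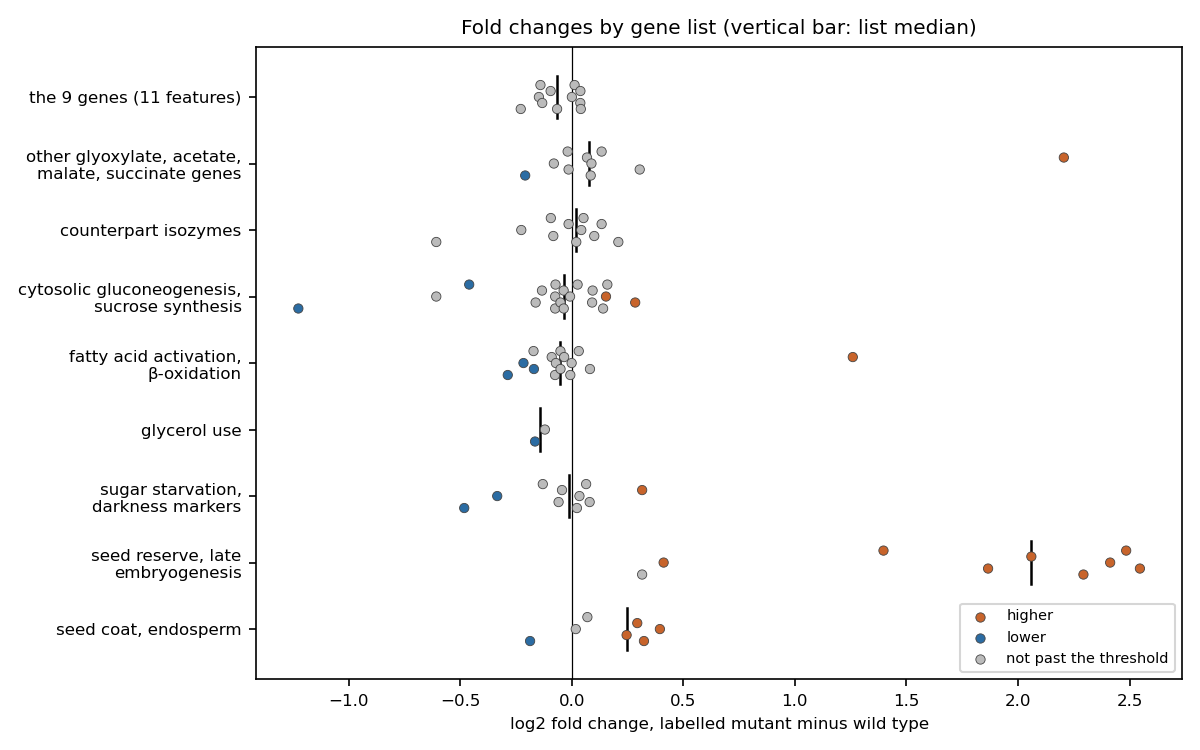
Log2 fold change (x axis, labelled mutant minus wild type) of the 9 genes and of 8 gene lists (y axis), with genes past an adjusted p of 0.05 in orange where higher and in blue where lower, the others in grey, and list medians as vertical bars. The 9 genes lie close to 0, at -0.23 to 0.04, while 8 of 9 seed reserve and late embryogenesis genes lie to the right in orange.

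Beside the rises of SDH2-3 and KAT5, seed reserve and late embryogenesis genes were higher. Of 9 measured 8 rose, or 88.9% against 19.4% of all genes, among them GEA6 (2.48 ± 0.15, limma adjusted p 1.99e-07) and M10 (1.87 ± 0.11), with a list median of 2.06. The list mean, relative to wild type, was 1.57 to 1.88 on the arrays labelled mutant and -0.48 to 0.27 in wild type, where replicates 2 and 5 were lowest. SDH2-3 was lowest on the same wild-type arrays, KAT5 was lowest on wild-type replicates 4 and 1, and PCK1 was low on replicate 2 and high on replicate 5. Of 7 seed coat and endosperm markers 4 rose (57.1%, against 19.4% of all genes), including MAN7 (0.25 ± 0.045) and BAN (0.32 ± 0.061), and FIS2 fell (-0.19 ± 0.049), a call lost with the replicate number as a block (limma adjusted p 0.0609), with arrays 3 numbers apart averaged (0.0579) and without replicates 2 and 5 of both groups (0.0900). Of these, BAN, TT12, TT16, RGE1 and FIS2 were in the dimmest 25% of features, and the list mean was -0.02 to 0.02 in wild type and 0.03 to 0.25 on the arrays labelled mutant. The part of these tissues or of seed RNA in the changes of SDH2-3 and KAT5 was not tested.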

How the data were processed

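The deposited values are linear intensities, with a single value for each feature of an array. The submitters' processing notes name RMA as the authors' tool, without version or settings. RMA brings the arrays to a common scale, so each gene is measured relative to the others. The deposited standard errors, whose scale is unstated, entered no test. Intensities were log2-transformed and fitted over all 37118 features with limma 3.58.1 in R 4.3.3 (lmFit, eBayes, neither filter nor covariate), and p-values were adjusted by Benjamini-Hochberg across the array. Features of one gene were compared by exact permutation over 462 splits. A listed gene with several features was represented by its brightest. The fit was tested on simulated data. Symbols came from a RefSeq table (TAIR10.1), in which 31993 of 32627 loci were found; no sequences or coordinates were used. Members, lists and the averaging of arrays 3 numbers apart were chosen with earlier results of these data known. Named are all members, the counterpart isozymes, PME3, the genes most like ICL, MLS and PCK1, and up to 2 risen and 2 fallen genes per list; other genes named were chosen after their values were seen. A gene set down for these lists is not reported here. Replicates were collected separately, and their number limits the precision. Some genes read alike on wild-type arrays 3 numbers apart. ASN1 had log2 values of 14.36 and 14.27 (replicates 1 and 4), 14.13 and 14.10 (2 and 5) and 12.72 and 12.61 (3 and 6). MLS did not, with 14.04 and 14.39 on replicates 1 and 4. The fits take all arrays as independent. If such arrays are related, the p-values are too small, which was not tested. Per-sample columns of other samples numbered 0. Same-numbered arrays of the groups correlated in their deviations above 0.1 for 1 of 5 numbers, so the numbers were not taken as pairs.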

Additional observations from a re-analysis of the deposited data

How the results depend on the processing

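Of the 11 features, 0 were called lower with all arrays and 1 was with a second quantile normalization, 75th percentile centring, the dimmest 50% left out, an intensity trend (SDP1 in each), array weights (CSY3), or replicates 2 and 5 of both groups left out (PMDH2 feature 2, chosen after seeing the data). Without 1 array in turn the count was 0 to 1. With the replicate number as a block, without wild-type replicate 4, it was 0 lower and 0 higher, and over all features 4226 lower and 5505 higher. PCK1, at 0.00094, changed sign with a second quantile normalization (-0.0055), 75th percentile centring (-0.0096), array weights (-0.018), the replicate block (-0.0095), arrays 3 numbers apart averaged (-0.012) and without replicates 2 and 5 (-0.023). Without replicates 2 and 5, PMDH2 feature 1 was at -0.056, mMDH2 at -0.011 and ACO1 at 0.0093; ACO1 was at 0.0020 with median centring. Without 1 array in turn, PCK1 ran from -0.055 to 0.042, ACO3 from -0.012 to 0.045, PMDH1 from -0.00034 to 0.076, PMDH2 feature 1 from -0.011 to 0.11 and ACO1 from -0.035 to 0.019. None of these sign changes passed the threshold. Of 80 listed genes 10 were lower and 17 higher, against 6 lower with arrays 3 numbers apart averaged, 1 lower and 9 higher with a fold of 1.5, and 5 lower without replicates 2 and 5. The PMDH2 feature differences ran from 0.15 to 0.22 (1 minus 2) and from 0.077 to 0.17 (1 minus 4) without 1 array, and were 0.18 and 0.052 without replicates 2 and 5. The calls of PME3, SDH2-3 and KAT5 remained in all 11 fits without 1 array. Over all features, 5044 lower and 6989 higher became 3236 and 3938 with arrays 3 numbers apart averaged, 1858 and 1264 with a fold of 1.5, and 3469 and 3297 without replicates 2 and 5. With the dimmest 50% left out CSY3 has no value. The causes were not tested.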
